A study of Rattus norvegicus with 6 samples.

Results

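Kidney RNA of 3-day-old Cy/+ rats was compared with kidney RNA of 3-day-old +/+ rats on a single 2-colour oligonucleotide array. Both pools came from the Han:SPRD strain, in which Cy is a dominantly inherited mutation that causes polycystic kidney disease. The Cy/+ pool, from heterozygous animals, carried the dye Cy5, and the +/+ pool carried Cy3. The ratio given throughout is log2 of Cy5 over Cy3 after normalization within the array, so a value of 1 is 2-fold higher in the Cy/+ pool. A gene was counted as measured when a probe was well above background in at least 1 channel, and its brightest such probe stood for it. Of 12776 genes measured, 143 were at least 2-fold higher in the Cy/+ pool and 39 were at least 2-fold lower. The series holds 6 arrays, and 3 others were read here beside this array: homozygous Cy/Cy kidney and +/+ kidney, both at 3 days, and Cy/+ kidney at 7 days. Each was hybridized against an age-matched +/+ pool in Cy3, so the 3-day arrays share a reference by label, whereas the 7-day array has its own. The labels do not say how many animals were pooled, dyes were not swapped, and with 1 array per group no difference could be tested.

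In the Han:SPRD rat the Cy mutation is a single-base change in Anks6, which encodes an ankyrin-repeat and SAM-domain protein of the primary cilium. Heterozygotes develop slowly growing cysts, mostly in proximal tubules, while homozygotes develop massively enlarged kidneys within weeks of birth. At 3 days of age the rat kidney is still forming nephrons at its outer rim, and the tubules, the vessels and the urothelium-lined pelvis are maturing.

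The array's single Anks6 probe read 144 in Cy5 and 122 in Cy3 (scanner units, background included), a log2 ratio of -0.04. It read 183 and 128 on the 3-day Cy/Cy array (0.13) and 150 and 90.7 on the 7-day Cy/+ array (0.16). A point mutation leaves the transcript in place, so this probe does not check the genotype.

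Median signals of the 4 arrays were 111 to 157 in Cy3 and 172 to 336 in Cy5, and 66.8% to 72.6% of spots were well above background in a channel. The SD of the log2 ratio over genes was 0.36 on the 3-day Cy/+ array, 0.18 on the 3-day Cy/Cy array and 0.25 on the 7-day Cy/+ array. The array labelled 3-day +/+, a comparison of +/+ with +/+, had an SD of 1.15 and 20.1% of genes at least 2-fold from its reference. It goes against its label and was not used as a control. All 3-day arrays lay on 1 slide with each genotype at its own position, so genotype and position cannot be told apart. Technical spread within the array of interest was small: spots of the same probe had a pooled SD of 0.06 (log2, 263 probes with 2507 spots). Of 3289 genes with several probes, 16 had probes more than 1 log2 unit apart. Among these 16 were genes called at least 2-fold from the reference: Calb1, Spink1, Ptgs2, Slc14a2, Tbx18, Rnase1, Cox8b and Crygd. The scanner software's own error for a ratio had a median of 0.21 log2 units. None of these values covers the spread between animals. The median of all genes was 0.02.

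The labelled tissue was checked against defining kidney markers, all of which were well above background in both channels. Umod, the urinary glycoprotein of the thick ascending limb, read 161000 in Cy5 and 101000 in Cy3. Lrp2 (megalin), the endocytic receptor of the proximal tubule, read 109000 and 25200, and Aqp2, the vasopressin-regulated water channel of the collecting duct, read 28233 and 11367. Loess removes the dependence of the ratio on brightness, which is large for the brightest spots: Umod had a ratio of -0.62 after it in spite of the higher Cy5 signal, and of 0.33 with median centring in its place.

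Most of the genes furthest above the reference belonged to tissues other than the kidney tubule. Of the 143 genes at least 2-fold higher (1.12% of genes measured), 25 were on a list of exocrine pancreas genes, 5 on one of islet genes, 7 on one of white fat and 3 on one of brown fat. Urothelium accounted for 10 more, loose connective tissue for 9, smooth muscle for 2 and mesothelium for 1. Another 4 were on lists of other tissues (muscle, liver and macrophages). The remaining 77 were on none of these lists, which does not make them kidney genes: Zg16 and Pdia2, pancreas genes described below, are among them. In RNA of whole tissue, more or fewer cells of a type cannot be told apart from more or less RNA per cell. Of the 39 genes at least 2-fold lower (0.305% of genes measured), 32 were on none of them. With median centring of the array in place of loess, 536 genes were at least 2-fold higher and 15 at least 2-fold lower, so that higher genes made up 97.3% of those past 2-fold, against 78.6% after loess. At the edges of the threshold lay Slc34a2 (1.00) just inside and Alox15b (0.998) just outside among higher genes, and Ehhadh (-1.01) just inside and Qrfpr (-0.999) just outside among lower genes.

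**Figure D1:**
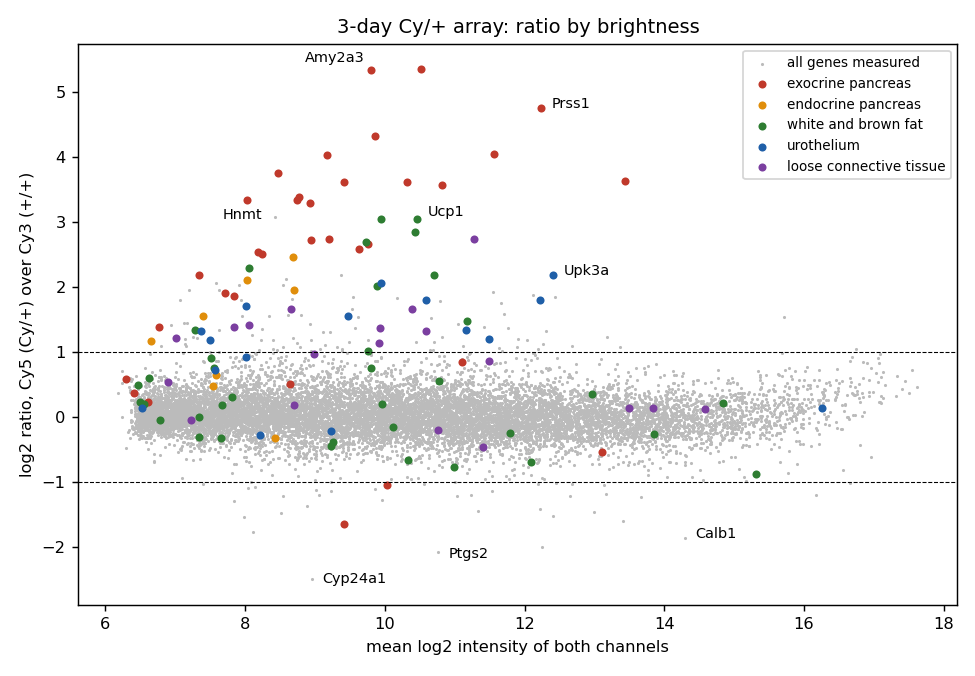
Log2 ratio of the 3-day Cy/+ array (Cy5 over Cy3) against the mean log2 intensity of both channels, 1 point per gene for 12776 genes, with genes of 5 tissue lists coloured and dashed lines at 2-fold. Exocrine pancreas genes fill the top of the plot up to 5.34, while the lowest genes, Cyp24a1 (-2.50) and Ptgs2 (-2.08), belong to none of the coloured lists.

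Exocrine pancreas transcripts, the digestive enzymes made by acinar cells, were the strongest signal on the array. Of 33 measured members of the list 25 were at least 2-fold higher and 2 were at least 2-fold lower, with a median log2 ratio of 2.72 against 0.02 for all genes. Prss1, which encodes anionic trypsinogen, read 32700 in Cy5 and 707 in Cy3, a ratio of 4.74 (26.8-fold). On the 3-day Cy/Cy array it read 64.9 and 73.9, and on the 7-day Cy/+ array 59.0 and 62.7. Prss1 was thus bright in the 3-day Cy/+ pool and close to background in the Cy/Cy and 7-day Cy/+ pools.

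The same held for amylase, lipases, elastases, carboxypeptidases and chymotrypsinogen. Amy2a3, a pancreatic amylase, read 7000 in Cy5 and 108 in Cy3 (log2 ratio 5.34), against 52.5 and 65.9 on the 3-day Cy/Cy array. Ctrb1, chymotrypsinogen B, was the brightest member with 52700 in Cy5 and 2310 in Cy3 (3.62), against 497 and 364 on the Cy/Cy array. Cpb1, carboxypeptidase B, read 15700 and 570 (4.05), and Prss3b, another trypsinogen, read 11700 and 179 (5.34). Pnliprp1 (4.32), Cela3b (3.61), Cpa1 (3.60), Cel (2.73) and Pla2g1b (2.66) were among the other lipid-, protein- and elastin-digesting enzymes. Clps, colipase, a cofactor of lipase, was at 3.34. Trypsinogens share sequence, so signal can cross between their probes. Where 1 channel was not well above background the fold is only a bound, set by the brighter channel over the dimmer spot's own signal or the array's detection floor: Pnliprp2 was at least 13.4-fold, Prss3 at least 10.1-fold, Tff2 at least 4.54-fold and Reg1a at least 2.36-fold higher.

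Some members did not follow. Pnlip, pancreatic lipase, was not well above background in either channel. Ptf1a, the transcription factor that specifies acinar cells, read 87.8 in Cy5 and 52.3 in Cy3, with Cy3 not well above background, and was at least 1.28-fold higher. Cela1, elastase 1, had a ratio of 0.84 on its brightest probe and 1.90 on its other probe. The trypsin inhibitors Spink1l (-1.66) and Spink1 (-1.05) were lower, although a second, dimmer Spink1 probe gave 1.35. Over the 25 higher members the median log2 ratio was 3.34, against -0.04 on the 3-day Cy/Cy array and -0.00 on the 7-day Cy/+ array, where none of them was 2-fold higher. These members were picked by their ratio on the 3-day Cy/+ array, which by itself favours a higher median there. Over all 33 measured members the medians of the arrays, in the same order, were 2.72, -0.05 and -0.00. Being measured was itself judged on the 3-day Cy/+ array, where 33 members were well above background in Cy5 and 26 in Cy3. Members counted through Cy5 alone also favour a higher median there. With no filter on dim probes the median on that array was 2.53.

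For reference, the first 30 bases of the probes behind the brightest calls are shown, as deposited, with their positions in rat build rn3; they show what each probe was designed on, and related transcripts may add signal.
Prss1 probe at chr4:69465148-69465207: gctgcaaactaaatatcttcagtctctctt
Amy2a3 probe at chr2:209434169-209435369: aggacaagaaatttccagaatggaaaagat

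Acinar enzyme genes are known to be driven by the PTF1 complex, whose bipartite element joins an E-box, CACCTG, to a TTTCCC box. The 250 bases upstream of the transcription start (RefSeq, build GRCr8) were available for 24 of the 33 measured members, and both motifs were searched on both strands. CACCTG occurred in 11 of 24 (45.8%) against 15.6% of 27457 rat promoters, and TTTCCC in 10 of 24 (41.7%) against 22.1%. Both were present in 6 of 24 (25%) against 3.23%. The joined form, CACCTG then 4 bases of any kind (N) then TTTCCC, a spacing chosen after these sequences were seen, occurred in Prss2, Ctrb1 and Cela1, that is 3 of 24 (12.5%) against 8 of 27457 (0.0291%). A match is a description of the letters and not evidence of binding. The upstream sequences of Prss1, Ctrb1 and Cela1 are printed 5' to 3' because they show the motifs apart and joined; capitals mark CACCTG or TTTCCC read on either strand.
Prss1 at chr4:71330999-71331248, plus strand: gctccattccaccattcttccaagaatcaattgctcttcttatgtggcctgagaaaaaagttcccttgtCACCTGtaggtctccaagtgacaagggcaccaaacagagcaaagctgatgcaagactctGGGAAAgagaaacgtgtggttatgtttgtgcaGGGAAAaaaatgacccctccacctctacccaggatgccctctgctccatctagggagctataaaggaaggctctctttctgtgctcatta
Ctrb1 at chr19:56566979-56567228, minus strand: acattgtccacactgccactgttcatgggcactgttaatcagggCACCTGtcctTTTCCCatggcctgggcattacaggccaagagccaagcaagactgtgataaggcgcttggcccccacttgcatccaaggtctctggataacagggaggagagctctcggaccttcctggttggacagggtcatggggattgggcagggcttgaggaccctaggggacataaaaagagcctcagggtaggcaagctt
Cela1 at chr7:133665062-133665311, minus strand: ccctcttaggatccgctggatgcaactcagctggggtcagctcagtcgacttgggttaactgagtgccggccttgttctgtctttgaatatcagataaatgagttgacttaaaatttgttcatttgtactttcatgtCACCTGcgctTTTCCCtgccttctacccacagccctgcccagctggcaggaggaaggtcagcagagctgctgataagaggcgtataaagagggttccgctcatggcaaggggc

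The Cy3 signal of exocrine probes, the channel of the reference pool, was also higher on this array. By label the Cy3 pool was the same on the 3-day Cy/+ and Cy/Cy arrays, and over all genes its signal differed by a median of 0.10 log2 units between them. Among the 25 higher exocrine genes, 10 had a Cy3 signal at least 2-fold higher on the Cy/+ array, against 27 of all genes (0.211%). Prss1 read 707 in Cy3 on the Cy/+ array against 73.9 on the Cy/Cy array, Ctrb1 2310 against 364, Cpb1 570 against 98.4, and Cela3b 285 against 58.0. Amy1 went the other way, with 111 against 178. As a share of Cy5 after subtraction of the median backgrounds, the Cy3 signal of the 25 genes ran from 0.978% (Amy2a3) to 13.4% (Erp27), with 2.04% for Prss1 and 4.31% for Ctrb1. None of the measured islet, fat or urothelium genes differed 2-fold in Cy3 between the arrays. The ratios of these pancreas genes are taken over this Cy3 signal; the cause of its difference between the arrays was not tested.

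Islet transcripts were higher as well. Of 8 measured members of the endocrine pancreas list 5 were at least 2-fold higher, and the median log2 ratio was 1.36. Ins2 read 623 in Cy5 and 103 in Cy3 (2.10), and 83.2 and 74.6 on the 3-day Cy/Cy array. Ins1, the other rat insulin gene, read 977 and 172 (1.95 ± 0.10, SD over 10 spots of its probe), and 170 and 132 on the Cy/Cy array. The 2 insulin genes are close copies, so their probes may share signal. Chgb, a granule protein of endocrine cells, had the highest ratio (2.46), and the glucagon gene Gcg was at least 2.93-fold higher. Nkx6-1, a beta-cell transcription factor, was the lowest member at -0.33. Requiring both channels above background put the median of the list at 0.64: Gcg dropped out, and Chga was then read on its other probe (0.23 in place of 1.17).

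Some fat transcripts were higher too. Of 25 measured white fat genes 7 were at least 2-fold higher, with a median of 0.48, and of 11 brown fat genes 3 were, with a median of 0.21. On the 3-day Cy/Cy array the medians of these lists were 0.03 and 0.08, with 1 and 2 members at least 2-fold higher. Over all genes of the 3-day Cy/+ array 1.12% were at least 2-fold higher, and the median was 0.02. The white fat median was the value of Plin1, whose Cy3 was not well above background. Requiring both channels above background put the white fat median at 0.30. Adipoq, which encodes the fat hormone adiponectin, read 4590 in Cy5 and 407 in Cy3 (2.84), 947 and 371 on the 3-day Cy/Cy array (0.69), and 270 and 168 on the 7-day Cy/+ array (-0.12). Ucp1, the uncoupling protein that lets brown fat make heat, read 5062 and 390 (3.04 ± 0.05, SD over 10 spots), 914 and 239 on the Cy/Cy array (1.28), and 107 and 87.4 at 7 days (-0.10). Ucp1 was therefore highest in the 3-day Cy/+ pool, intermediate in the Cy/Cy pool and near background at 7 days.

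Hormones, lipid carriers and heat-making genes of adipocytes made up the fat genes at least 2-fold higher. They were Car3 (3.04), Adipoq, the resistin gene Retn (2.68), the fatty acid carrier Fabp4 (2.19), the adipsin gene Cfd (1.46), the lipogenic regulator Thrsp (1.34) and the fatty acid transporter Cd36 (1.00) among white fat genes. In brown fat they were Ucp1, Cox8b (2.29) and Cidea (2.01), although Cox8b had a second, dim probe at 0.06. Leptin (Lep) was not well above background in either channel, the lipid droplet gene Cidec (0.90) stayed under 2-fold, and Plin1, another, had only a bound of at least 1.40-fold higher. Below 0 lay 9 of the 25 white fat genes and 4 of the 11 brown fat genes, where Ppargc1a was lowest (-0.39). At the bottom of the white fat list lay the retinol carrier Rbp4 (-0.78) and the gluconeogenic enzyme Pck1 (-0.87). The proximal tubule also makes Pck1, which read 43900 in Cy5 and 37600 in Cy3. The probes of Adipoq and Ucp1 are shown by their first 30 bases, since these genes carried the contrast with the Cy/Cy array.
Adipoq probe at chr11:79966064-79966123: gaaggggacaacaatggactctatgcagat
Ucp1 probe at chr19:26532513-26532572: ttcttttctgcgactcggatcctggaacgt

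Genes of the renal pelvis and of loose connective tissue were also among the highest; the lists for these tissues were drawn up after the values were seen and serve only to describe them. Of 16 measured urothelial genes 10 were at least 2-fold higher, with a median of 1.26. Upk3a, a uroplakin of the plaques that seal the urothelium, read 15200 in Cy5 and 1950 in Cy3 (2.17), 3690 and 1520 on the 3-day Cy/Cy array (0.50), and 3860 and 1450 on the 7-day Cy/+ array (0.22). Krt15, a keratin of basal epithelial cells, read 2480 and 384 (2.06), against 545 and 288 on the Cy/Cy array. Genes of the basal layer were high together with that of the surface plaques: Krt14 (1.80), Krt5 (1.32) and Tp63 (1.71), the master regulator of stratified epithelia, stood beside Upk1b (1.80).

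Of 19 loose connective tissue genes 9 were at least 2-fold higher, with a median of 0.96. Mfap5, a microfibril protein, read 8190 in Cy5 and 751 in Cy3 (2.74), 3600 and 692 on the Cy/Cy array (1.62), and 818 and 467 at 7 days (-0.23). Itm2a (1.66), Col8a1 (1.65), Lum (1.41) and Postn (1.37) followed, whereas the fibrillar collagens Col1a1 (0.65) and Col3a1 (0.75) were under 2-fold. Tbx18, a transcription factor of ureteric smooth muscle precursors, was at 1.82 on its brightest probe and 0.52 on the other, and Myh11, smooth muscle myosin, at 1.20 and 0.21. Msln, the mesothelial surface protein, was at 1.38.

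Lists of several other tissues had lower medians than the pancreas, urothelium, loose connective tissue and white fat lists. The brown fat median (0.21) lay below some of them. Adrenal genes had a median of 0.31, with 8 of 10 above 0, against 53.1% of all genes. Only Chga, shared with the islet list, was at least 2-fold higher. Among the defining adrenal markers Cyp11a1, which starts steroid synthesis, read 346 in Cy5 and 142 in Cy3 (0.84), and Star, the cholesterol carrier of steroid-making cells, was at 0.03. The steroid enzymes Cyp11b1 and Cyp21a1 were not well above background in either channel, while Cyp17a1, a steroid enzyme on no list of another tissue, was at 1.08. Skeletal muscle had a median of 0.00, with Tnnc2 (1.39) the only member at least 2-fold higher. Liver had a median of 0.28, with Tf (1.12) higher and Afp (-1.20) lower. Of 11 erythroid genes 2 were at least 2-fold lower, Slc4a1 and Hbb, and of 11 neutrophil genes likewise 2, against 0.305% of all genes. The erythroid median was -0.27, with 9 of 11 below 0. Hbb, a beta-globin, read 8510 in Cy5 and 14000 in Cy3 (-1.60). The 2 from the neutrophil list were the defensins Defa5 (-1.77) and RatNP-3b (-1.29), and the median of that list was -0.14. Macrophage genes had a median of 0.30, with 17 of 20 above 0, and a median of -0.06 on the 3-day Cy/Cy array. Of the 20 genes 2 were at least 2-fold higher, Ccl2 (2.18 ± 0.04, SD over 10 spots), a monocyte-attracting chemokine, and Spp1.

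**Figure D2:**
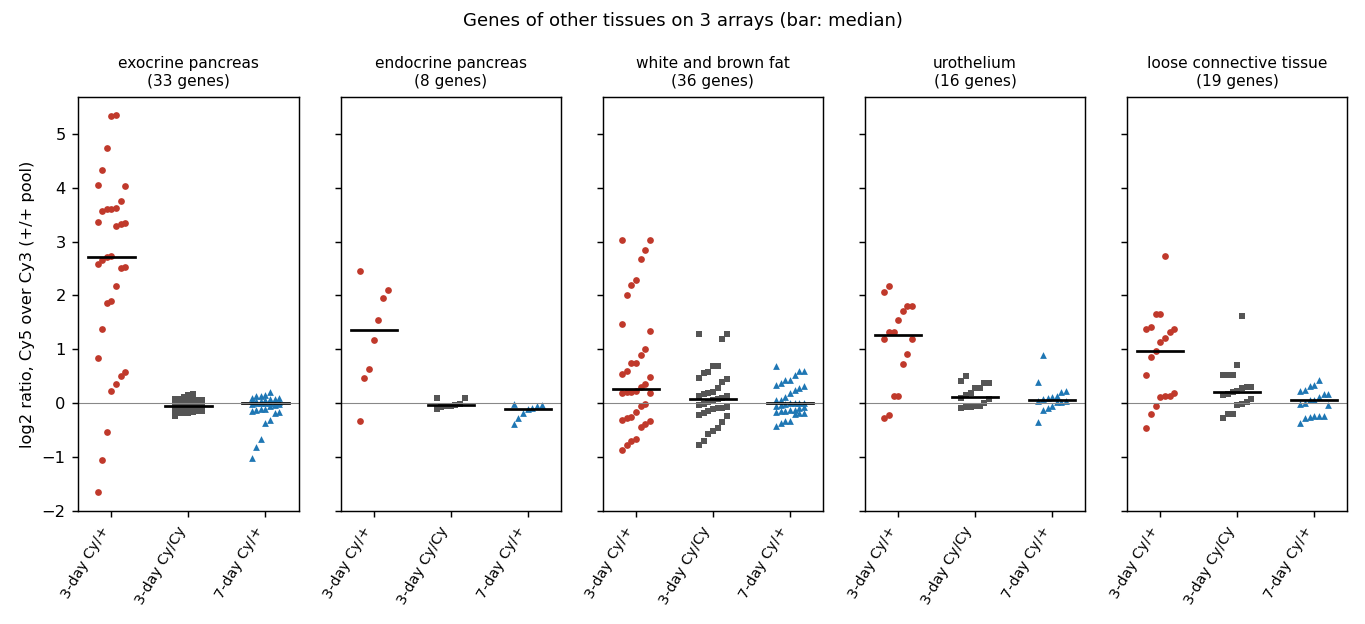
Log2 ratio (Cy5 over Cy3) of every measured gene of 5 tissue lists on the 3-day Cy/+, 3-day Cy/Cy and 7-day Cy/+ arrays, 1 point per gene, with a bar at the median. Exocrine genes reach 5.34 on the 3-day Cy/+ array and stay between -0.24 and 0.17 on the 3-day Cy/Cy array, while some fat and connective tissue genes are above 1 on both 3-day arrays.

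Outside these lists the highest gene was Hnmt, histamine N-methyltransferase, which inactivates histamine inside cells. Hnmt read 1170 in Cy5 and 92.1 in Cy3, a ratio of 3.07 (8.37-fold, with a software error of 0.48). It read 141 and 88.5 on the 3-day Cy/Cy array (0.42) and 307 and 56.6 on the 7-day Cy/+ array (1.71). Hnmt was therefore well above its reference in Cy/+ kidney at both ages and much closer to it in Cy/Cy kidney. The Cy3 signal was near background, so the size of the ratio depended on background handling and reached 4.55 with the scanner software's own ratio. Aoc1, diamine oxidase, which degrades histamine outside cells, read 248 and 85.3 (1.22). The other 5 histamine genes measured were under 2-fold, with the transporter Slc22a2 the lowest at -0.57. Pancreas, fat and urothelium genes were high in the same pool, and their part in the ratios of the other genes was not tested.

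Gclc, the catalytic subunit of the enzyme that limits glutathione synthesis, read 2700 in Cy5 and 495 in Cy3 (1.82). On the 3-day Cy/Cy array it read 1280 and 617 (0.35) and on the 7-day Cy/+ array 2390 and 347 (1.66). Gclc was the only 1 of 36 measured glutathione and oxidative stress genes at least 2-fold higher: its partner subunit Gclm was at 0.44 and the Nrf2 target Nqo1 at 0.49. At the other end Gstm5, a glutathione transferase, read 4170 and 7010 (-1.53), and Hmox1, heme oxygenase, 2559 and 3447 (-1.14 ± 0.03, SD over 10 spots). Hmox1 was lower still on the 3-day Cy/Cy array (-1.59) and above its reference at 7 days (0.41). The median of the group was 0.05. Probe stretches of Hnmt and Gclc are given because these enzymes were among the genes at least 2-fold higher at both ages.
Hnmt probe at chr3:2058230-2058289: tagtggttgaggcaaatgtataagtcatga
Gclc probe at chr8:82780716-82780775: gcctcattttgaaatgcaatcaaattgcaa

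A pair of sulfotransferases stood out. Sult1c2a read 13800 in Cy5 and 2220 in Cy3 (1.84), 9670 and 2430 on the 3-day Cy/Cy array (1.16), and 6510 and 727 on the 7-day Cy/+ array (1.97). Sult1c2 read 7630 and 1370 (1.75), 4000 and 1240 on the Cy/Cy array (0.91), and 3000 and 481 at 7 days (1.5). Both were above the reference on all 3 mutant arrays and on every probe: 1.17 to 1.84 over the 3 probes named Sult1c2a and 1.36 to 1.75 over the 3 named Sult1c2. None of the other 8 sulfotransferase and sulfate-donor genes measured had a ratio past 2-fold; Sult4a1, at least 1.38-fold higher, and Sult1c3, at least 1.28-fold lower, had only bounds. The pair lies on chromosome 9, and a probe named for each covers a matching stretch of 42 bases, equal at 40 of them (95.2%). The positions bear out neither name. The probe called Sult1c2a lies at chr9:996120-996179 on the plus strand, between the Sult1c2 probes that start at 994117 and 997621. The brighter Sult1c2a probes lie from 1030881 to 1032253 on the minus strand. The probe called Sult1c2 lies at chr9:591102-591161, away from the other Sult1c2 probes. The stretches are shown in full because they bear on how far such probes can tell the transcripts apart; capitals mark the differences, G9C and T21A, counted from 1 at the 5' end with the Sult1c2 base first.
Probe named Sult1c2: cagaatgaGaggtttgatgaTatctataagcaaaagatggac
Probe named Sult1c2a: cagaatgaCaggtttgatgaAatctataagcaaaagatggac

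With this likeness these probes may read both transcripts, and the values of the pair may not be independent. Further probes of the pair lie in stretches not matched to each other, the brightest of them as follows (first 30 bases, rn3).
Sult1c2 probe at chr9:994117-994309: attcgagacagataccagattctctttctc
Sult1c2a probe at chr9:1030881-1030940: actagaaaagtctgaaattttgttgaactt

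Several other genes outside the tissue lists were 3 to 4 times the reference at 3 days and stayed above it at 7 days. Aspg, an asparaginase, read 7460 in Cy5 and 1200 in Cy3 (1.91), 2150 and 936 on the Cy/Cy array (0.46), and 2630 and 458 at 7 days (1.39). Tm6sf2, a regulator of lipid secretion, was at 1.84, 0.43 and 1.90 on these arrays in the same order, and Sfnl1 at 1.78, 0.11 and 1.08. For these 3 genes the Cy/Cy array was nearer its reference than either Cy/+ array. Il24, an interleukin, was at 1.80, 0.16 and 0.82. Zg16 (2.02) and Pdia2 (1.95), on no list, are genes of pancreatic zymogen granules and pancreatic protein folding, and both were close to the reference on the other arrays (0.08 and -0.03 on the Cy/Cy array). Pnoc, the nociceptin precursor (2.73), and Grifin, a galectin relative (2.11), were also high at 3 days, with 0.26 and -0.02 at 7 days. Wfdc21 was at 2.03 on this array and 2.38 on the Cy/Cy array, and at -0.26 at 7 days.

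Most genes of injured tubules were above 0, by less than 2-fold. Of 25 injury genes measured 21 were above 0, against 53.1% of all genes, with a median of 0.25. Havcr1 (KIM-1), the injury receptor of the proximal tubule, read 555 in Cy5 and 155 in Cy3 (1.35), and was at 1.13 on the 3-day Cy/Cy array and 1.03 on the 7-day Cy/+ array. Spp1, osteopontin, read 136444 and 21311 (1.54 ± 0.16, SD over 9 spots), and was at 0.20 and 0.99. Of the list 4 genes were at least 2-fold higher (Il24, Spp1, Havcr1 and the keratin Krt20, which urothelium also makes) and 2 were lower, Hmox1 and Gdf15 (-1.03). Among proximal tubule genes the amino acid transporter Slc7a13 (1.36) and the organic anion transporter Slc22a24 (1.18) were at least 2-fold higher, and both were higher at 7 days (1.43 and 1.33).

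**Figure D3:**
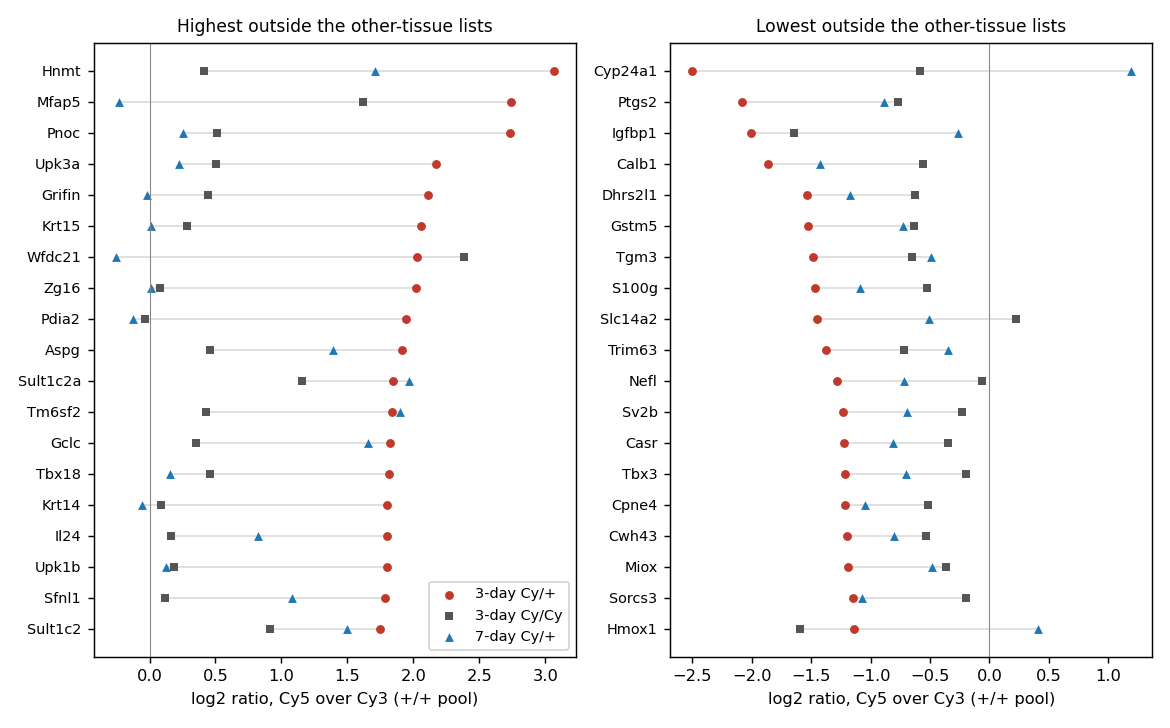
Log2 ratios (Cy5 over Cy3) of the highest and lowest genes outside the lists of other tissues, well above background in both channels, on the 3-day Cy/+ (circle), 3-day Cy/Cy (square) and 7-day Cy/+ (triangle) arrays, with a line joining the values of each gene. Hnmt (3.07) heads the higher genes, and Cyp24a1 runs from -2.50 at 3 days to 1.19 at 7 days.

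The lowest gene on the array was Cyp24a1, the 24-hydroxylase that inactivates vitamin D hormone. Cyp24a1 read 240 in Cy5 and 976 in Cy3, a ratio of -2.50 (5.66-fold lower), and a second probe gave -1.64. On the 3-day Cy/Cy array it read 1150 and 1040 (-0.58), so the Cy3 levels of the arrays were alike and the Cy5 levels differed. On the 7-day Cy/+ array it read 1530 and 322 (1.19), with 0.73 on the second probe. It was the only gene at least 2-fold lower at 3 days and at least 2-fold higher at 7 days. The first 30 bases of both probes are printed, as the gene with the largest change of direction rests on them.
Cyp24a1 probe at chr3:161446217-161446276: atataaagacatgaggtacccaatttagta
Cyp24a1 probe at chr3:161449277-161449336: cccaagtgtgccatttacaactcggaccct

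Some other genes of calcium handling in the distal nephron were lower. S100g, calbindin-D9k, read 6520 in Cy5 and 10100 in Cy3 (-1.47), 10100 and 7830 on the Cy/Cy array (-0.53), and was at -1.09 at 7 days. Casr, the calcium-sensing receptor, read 5540 and 7430 (-1.23). Both are bright, and with median centring in place of loess they were under 2-fold, at -0.97 and -0.76. Of 19 genes on a vitamin D and calcium list, drawn up after the values were seen, 4 were at least 2-fold lower and none higher. Over all genes 0.305% were at least 2-fold lower. The list had a median of -0.21, with 8 of 19 above 0 and Lrp2 the highest (0.97). With median centring the list median was 0.27, level with that of all genes (0.27). The vitamin D receptor gene Vdr was at -0.42 (Cy5 98.6, Cy3 118), Cyp27b1, which makes the active hormone, at 0.38, and the calcium channel gene Trpv6 at 0.41.

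Calb1, calbindin-D28k, the calcium buffer of the distal convoluted tubule, was lower on its brightest probe, with 14800 in Cy5 and 27300 in Cy3 (-1.86). Its 4 probes did not give 1 answer. The 2 brighter ones were at -1.86 and -1.28, while the 2 dimmer ones, which lie at higher coordinates on chromosome 5, were at 0.56 (SD 0.03 over 10 spots) and 0.52. On the 7-day Cy/+ array, with its own reference, the same probes were at -1.43, -1.15, 0.52 and 0.50, so the split was the same at both ages. On the 3-day Cy/Cy array they were at -0.56, -0.60, -0.34 and -0.17. The median over probes was -0.38, so Calb1 counts among the 39 lower genes through its brightest probe and not through all of them. The probes are printed in order of brightness (first 30 bases, rn3), so that the parts of the transcript read can be found.
Calb1 probe at chr5:30479753-30479812: tgtgcgttttccatctagtggaagggatgt
Calb1 probe at chr5:30475783-30475991: aggaaaatttccttcttaaattccagggaa
Calb1 probe at chr5:30480258-30480317: tataatggtgacatggaaaaaatactgctg
Calb1 probe at chr5:30480350-30480409: tcccagacaccacaagataccaacaagagc

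Ptgs2, cyclooxygenase-2, which makes prostaglandins in the macula densa and thick ascending limb, was lower. It read 1060 in Cy5 and 2852 in Cy3 (-2.08 ± 0.03, SD over 10 spots), 2562 and 2540 on the 3-day Cy/Cy array (-0.77), and 798 and 704 on the 7-day Cy/+ array (-0.89). A second, dim Ptgs2 probe was at -0.25. On its brighter probe Ptgs2 had its lowest ratio in the 3-day Cy/+ pool. Of 20 prostaglandin genes measured only Ptgs2 and Alox15 (-1.04) were at least 2-fold lower, and none was higher.

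Igfbp1, an insulin-like growth factor binding protein, read 3150 in Cy5 and 7470 in Cy3 (-2.01) and was lower on the Cy/Cy array too (-1.64), but near its reference at 7 days (-0.27). Slc14a2, the urea transporter of the inner medulla, read 1980 and 3330 (-1.45), with 0.06 on a dimmer probe, and 7310 and 3500 on the Cy/Cy array (0.23). Miox, a proximal tubule enzyme of inositol breakdown, was at -1.19. Slc4a1, the anion exchanger of red cells and intercalated cells, was at -1.20, with -0.41 on a dimmer probe. The neurofilament genes Nefl (-1.28) and Nefm (-1.06) and the synaptic vesicle gene Sv2b (-1.23) were lower as well. Cdkn1c, the cell cycle inhibitor p57, read 112000 and 95000 and was at -1.02, with -0.91 to -1.22 over its 4 probes; it was at 0.42 on the Cy/Cy array and -1.22 at 7 days. Cdkn1c is among the brightest genes, and with median centring it was at -0.10 against an all-gene median of 0.27, while the scanner software's ratio gave -1.20. Median centring also left Miox (-0.68), Slc4a1 (-0.85), Sv2b (-0.66), Hmox1 (-0.77), Alox15 (-0.61), Gdf15 (-0.72) and Afp (-0.34) under 2-fold. Cyp24a1 (-2.29), Ptgs2 (-1.76) and Igfbp1 (-1.58) stayed at least 2-fold lower with it.

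Marker lists of nephron segments were shifted by less than 2-fold as groups. Over all genes 5993 of 12776 were below 0. The thick ascending limb list, whose cells take up salt without water, had a median of -0.49, with 14 of 16 genes below 0. Of these 2 (Ptgs2 and Casr) were at least 2-fold lower. The intercalated cell list, of the acid- and base-secreting cells of the collecting duct, had a median of -0.59 with 15 of 16 genes below 0. The distal convoluted and connecting tubule list was at -0.32, and the podocyte list at -0.29 with 13 of 18 genes below 0 and Clic5 the lowest at -0.91. On the 3-day Cy/Cy array the thick ascending limb and intercalated cell medians were -0.19 and -0.37. These 4 lists lay below the median of all genes under each of 12 ways of processing, although with median centring the thick ascending limb list was at -0.01 with all genes at 0.27.

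Proximal tubule genes lay slightly higher, with a median of 0.23 and 30 of 45 genes above 0, against 53.1% of all genes. The list was at 0.13 on the Cy/Cy array and 0.46 on the 7-day Cy/+ array, and it ran from Slc7a13 (1.36) down to Miox (-1.19). After subtraction of the Cy/Cy array the median was 0.03. Collecting duct principal cell genes were at 0.22, with 9 of 17 above 0, a share like that of all genes. Upk1b, which urothelium also makes, was the highest. The median was the value of Kcnj10, which read 84.6 in Cy5 and 75.8 in Cy3, with Cy3 not well above background. Nephron progenitor genes (-0.01) and ureteric tip genes (-0.05) were close to all genes.

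Cell cycle genes were shifted together by a small amount. Of 38 genes measured 37 were above 0, against 53.1% of all genes, with a median of 0.42, and the median was 0.29 on the 3-day Cy/Cy array. Rrm2, a subunit of ribonucleotide reductase, read 3110 in Cy5 and 881 in Cy3 and was the only member at least 2-fold higher (1.15, with 0.61 on its second probe), and Ccnd3 was the lowest at -0.10. Genes of cholesterol synthesis were alike: 21 of 22 were above 0, from Stard4 (0.72) to Srebf2 (-0.18), with a median of 0.31 and none 2-fold higher. Genes of cystic disease and the cilium (0.01), glycolysis (0.06), growth factors (-0.05) and fatty acid oxidation (-0.16) had medians closer to that of all genes, and fatty acid oxidation turned to the other side of the all-gene median, and cystic disease genes likewise, under at least 1 way of processing.

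**Figure D4:**
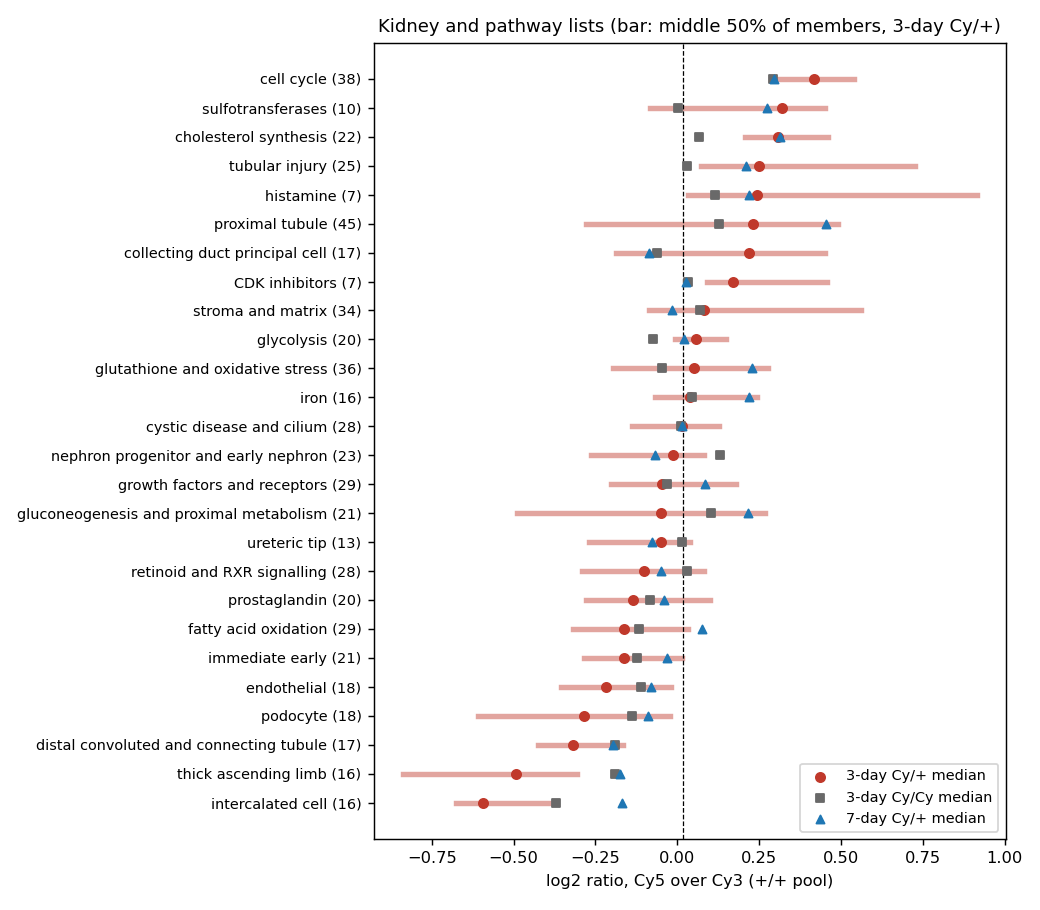
Median log2 ratio (Cy5 over Cy3) of kidney and pathway gene lists on the 3-day Cy/+ (circle), 3-day Cy/Cy (square) and 7-day Cy/+ (triangle) arrays, with the number of genes measured in brackets, a bar for the middle 50% of members on the 3-day Cy/+ array and a dashed line at the median of all genes (0.02). Intercalated cell (-0.59) and thick ascending limb (-0.49) genes are lowest, and cell cycle genes (0.42) highest.

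The 7-day Cy/+ array, with its own reference pool, shows which of the 3-day genes were also away from the reference 4 days later. On it 53 of 12776 genes (0.415%) were at least 2-fold higher and 21 (0.164%) at least 2-fold lower. Of the 143 genes higher at 3 days 22 were also at least 2-fold higher at 7 days, and all 22 were among the 77 on no list of another tissue. Among them were Hnmt, Aspg, Sult1c2a, Sult1c2, Tm6sf2, Gclc, Sfnl1, Dleu7, Prss30, Cfap65, Gpr15lg, Slc7a13, Havcr1, Aadat, Afm, Plek2, Slc22a24, Ptprq, Rrm2, Slc22a22 and Pter. Of the 39 lower genes 10 were also at least 2-fold lower at 7 days: Calb1, Spink1l, Hbb, Dhrs2l1, S100g, RatNP-3b, Cpne4, Sorcs3, Tac3 and Cdkn1c. By group, none of the exocrine, islet, fat, urothelial or connective tissue genes higher at 3 days was 2-fold higher at 7 days, with 7-day medians of -0.00, -0.05, -0.12 (white fat), 0.11 and 0.11. The 77 other genes, which include the pancreas genes Zg16 and Pdia2, had medians of 1.23 at 3 days, 0.49 at 7 days and 0.35 on the 3-day Cy/Cy array. All these groups were picked by their ratio on the 3-day Cy/+ array. That choice by itself favours a higher median there, so the fall to the other arrays is no measure of change. Age and slide cannot be told apart, and the Cy/+ pool had the same position on both slides.

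**Figure D5:**
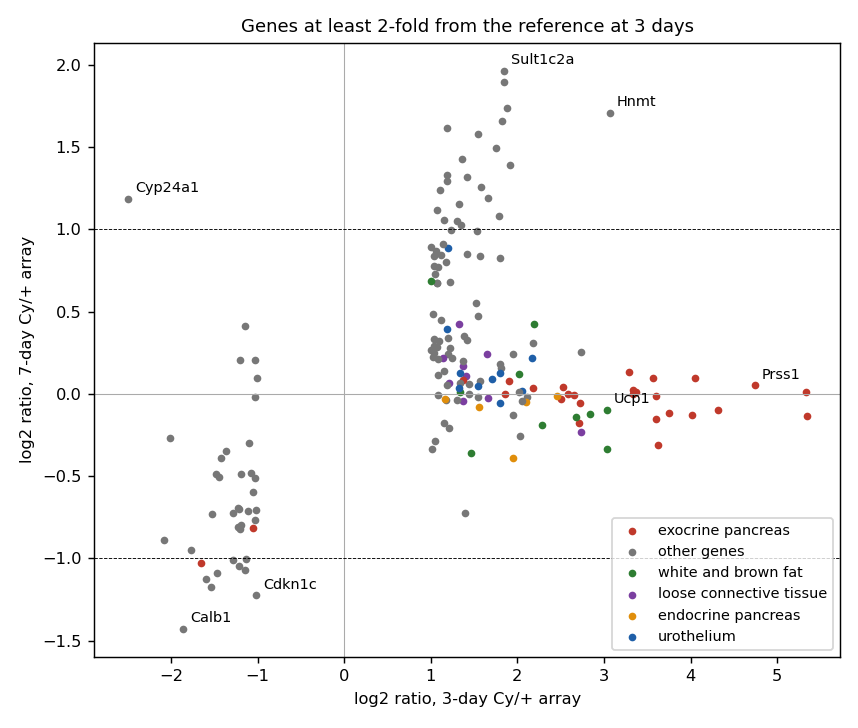
Log2 ratio on the 7-day Cy/+ array against that on the 3-day Cy/+ array for the 182 genes at least 2-fold from the reference at 3 days, coloured by tissue list, with dashed lines at 2-fold on the 7-day array. Genes of pancreas, fat, urothelium and connective tissue that are higher at 3 days lie between -0.39 and 0.89 at 7 days, and Cyp24a1 is alone at the upper left.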

How the data were processed

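Per the labels' protocols, kidney RNA pools were amplified linearly, labelled with Cy5 (sample) or Cy3 (age-matched +/+ pool) and hybridized to Agilent 60-mer rat arrays. Per the file headers the scans were read with Agilent Feature Extraction 9.5.1.1 and probes were placed on build rn3; the series text names another product and an older version, and the headers were followed. The deposited mean spot signals and median local backgrounds are intensity values without normalization, per the file headers. As an alternative the software's own deposited ratio was used, a log10 value of its dye-normalized signals.

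Computation used limma 3.58.1 (R 4.3.3; version 1.17.8 of data.table). Mean signals were corrected by normexp (offset 50) and adjusted by loess (span 0.3) within each array of 43379 non-control spots; control spots and spots with outlier flags (141 on the 3-day Cy/+ array) had weight 0. Spots of a probe were averaged. Of 41012 probes 10735 were named by their own accession, 117 by another, 5567 by symbol and 5631 by synonym in a RefSeq table (GRCr8, names only); 9 matched several genes and 18953 none. With 1 array per group a call means at least 2-fold, with no p-value. The steps were tested on simulated arrays.

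Named genes are the 20 highest and 20 lowest outside other tissues (both channels well above background), all pancreas and fat list members, from every other list the members past 2-fold with its extremes, and Anks6; others, including the 22 and 10 genes shared with 7 days, were named after their values were seen. Some of these genes are not reported here. Members and lists were chosen with earlier results of these data known. The urothelium, smooth muscle, loose connective tissue, mesothelium and vitamin D lists were added after the values were seen. Arrays limit precision by their number.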

Additional observations from a re-analysis of the deposited data

Results flagged for a closer look

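Cyp24a1 was set apart because its direction differed between the ages. The log2 ratio of the 3-day Cy/+ array minus that of the 7-day Cy/+ array was -3.69 (-2.50 against 1.19), and the second probe also changed sign (-1.64 against 0.73). The difference was not tested, since each age has 1 array, and age, slide and reference pool cannot be told apart.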

How the results depend on the processing

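The counts of 143 higher and 39 lower genes were within 1.5 times of these values under most alternatives. The exceptions for higher genes were 536 with median centring in place of loess, 311 with the scanner software's ratio, and 77 without the genes of other tissues and of the lists added later, an alternative chosen after seeing the data that counts fewer genes by construction. For lower genes they were 15 with median centring, 90 with the software's ratio and 15 after subtraction of the 3-day Cy/Cy array. Median centring moved the median of all genes from 0.02 to 0.27 and the share of higher genes among those past 2-fold from 78.6% to 97.3%; the cause was not tested. The exocrine pancreas median was 3.65 with the software's ratio, and the endocrine pancreas median 2.70 with that ratio, 0.47 with no filter on dim probes and 0.64 with both channels above background. Among named genes past 2-fold, Hmox1 (0.45) and Wfdc21 (-0.35) changed sign after subtraction of the Cy/Cy array and Spink1 (0.15) with the median over probes. Of 1868 values of named genes under these alternatives 1618 stayed within the scanner software's error of the value reported. This share differed much between alternatives. All 171 genes stayed within it with a loess span of 0.7 or with flagged spots kept. Only 96 of 171 did with median centring, 95 after subtraction of the Cy/Cy array and 111 with the software's ratio. Of 473 medians of lists and of all genes 469 stayed within 1.5-fold. With genes under 2-fold included, 17 of 171 named genes and 15 of 43 medians changed sign under at least 1 alternative, 8 genes and 12 medians of them with median centring. No paired analysis was possible because every group has 1 array and no result comes from a test. Signal over background limits the ratios of genes with dim Cy3, such as Hnmt.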
